A study of Mus musculus with 7 samples.

Results

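The miRNAs described here are mmu-miR-143, mmu-miR-145, mmu-miR-126-3p and mmu-miR-126-5p, 4 of the 756 mature miRNA sequences measured in the mouse hippocampus. They were chosen by name, as miRNAs known from blood vessels, and all 4 were found at a single locus each. Each passed the minimum of 10 reads on average and so belonged to the 476 miRNAs tested.

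miRNAs are short RNAs cut from a hairpin precursor that lower the output of mRNAs matching their seed, the bases 2 to 8 of the mature strand. miR-143 and miR-145 come from neighbouring hairpins and are known as miRNAs of vascular smooth muscle and pericytes, the contractile cells around vessels. miR-126 lies inside Egfl7, a gene of endothelial cells, and is known for its part in vessel integrity and angiogenesis. In brain tissue these miRNAs are thus known mainly from cells of the vessel wall.

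In the build of the files (NCBI37/mm9), miR-126-5p lies at chr2:26446885-26446905 and miR-126-3p at chr2:26446922-26446943, both on the plus strand and separated by 16 bases of the hairpin Mir126. The hairpin is on the same strand as Egfl7. It lies within 11 of the 21 Egfl7 transcripts of the annotation for this build (GENCODE M1), in an intron of 10 and under an exon of 1. The annotation also lists a readthrough gene, Gm20532, over the same place, and RefSeq lists an antisense hairpin, Mir126b. The sources used here do not say whether the counting used strand.

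Both strands of the miR-126 hairpin were measured, so their sequences are shown, 5′ to 3′ with the seed in capitals, to make clear that the 2 products would read different targets.
miR-126-3p: uCGUACCGugaguaauaaugcg
miR-126-5p: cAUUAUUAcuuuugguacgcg
The first is 22 nt long and equals RefSeq's mmu-miR-126a-3p (GRCm38.p6 table). The second is 21 nt long and was read from the mm9 genome at the locus of the files.

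Mature miR-143 lies at chr18:61808853-61808873 and miR-145 at chr18:61807520-61807542, both on the minus strand. Their hairpins, Mir143 and Mir145, are 1292 bp apart. No gene of the annotation for this build spans them, while RefSeq places both within the span of Carmn, a long non-coding RNA. The 4 miRNAs had 4 different seeds, and each seed was carried by only 1 sequence of the files, so none shared its seed with another measured miRNA.

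Small RNA of pooled hippocampi was sequenced in 7 libraries from adult C57BL/6 mice of 3 to 5 months, male by the methods of the study. Double transgenic NIPP1* mice carry a tetO-driven fragment of NIPP1, a nuclear inhibitor of the phosphatase PP1, fused to EGFP, and a reverse tetracycline transactivator under the CaMKIIalpha promoter. Doxycycline in the diet switches the fragment on in forebrain neurons, so the transgene is not aimed at vessel cells. Controls were littermates, wildtype by their labels, and the sources used here do not say whether they received the doxycycline diet. Trained mice explored objects in the object recognition (NOR) task, and non-trained mice went through the same handling and habituation to the arena without objects. Library 1 is the non-trained control, library 2 non-trained NIPP1*, libraries 3, 4 and 5 are trained control, and libraries 6 and 7 trained NIPP1*. How mice were divided among libraries is not given in the sources used here, so p-values measure only the spread between these libraries, which may be technical.

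The deposited values give the reads of each locus in percent of all miRNA reads in that library, written here as RPM, reads per 1000000 miRNA reads. Low values fall on steps of 1 read, which gave totals between 7285534 and 10017666 reads per library. The libraries of the trained groups stand against their labels in one respect. The trained control means in the authors' tables were rebuilt by libraries 6 and 7 (root mean square error 0.00884% over 286 miRNAs, 15.2% for the labelled libraries), and the trained NIPP1* means by libraries 3, 4 and 5 (0.00799% over 287 miRNAs, 16.9% for the labelled ones). Groups follow the labels here, every direction between the trained genotypes carries this limit, and comparisons of all trained with all non-trained libraries do not depend on it. The list of neuronal miRNAs held 10 measured of 10 names and summed to between 67338 and 83012 RPM per library. Most of this sum was miR-128 (mean 61486 RPM). No other tissue was measured, so the sum does not test the identity of the tissue.

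miR-143 was the most abundant of the 4 in every library. Its level was 8707 RPM in library 1, 8817 in library 2, 9116, 12220 and 12880 in libraries 3, 4 and 5, and 10190 and 11310 in libraries 6 and 7. The mean was 10463 ± 1699 RPM (SD, n = 7), which ranked 23 of 756, and rested on 71176 to 113301 reads per library. The lowest values were those of both non-trained libraries, and library 3 stood closer to them than to the other trained control libraries.

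miR-145, its neighbour, was present at 300.8 RPM in library 1, 339.4 in library 2, 360.8, 474.5 and 439.4 in libraries 3, 4 and 5, and 412.1 and 424.6 in libraries 6 and 7. The mean was 393 ± 61.3 RPM (SD, n = 7), rank 112. The non-trained libraries were again lowest and libraries 4 and 5 highest.

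miR-126-3p, the main endothelial product, was present at 4804 RPM in library 1, 4754 in library 2, 5030, 4252 and 4300 in libraries 3, 4 and 5, and 4747 and 4580 in libraries 6 and 7. The mean was 4638 ± 281 RPM (SD, n = 7), rank 34. Here the order was turned, with library 3 highest and libraries 4 and 5 lowest.

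miR-126-5p, the opposite strand, was present at 1012 RPM in library 1, 880.4 in library 2, 978.8, 727.8 and 832.4 in libraries 3, 4 and 5, and 933.5 and 889.3 in libraries 6 and 7. The mean was 893 ± 95.1 RPM (SD, n = 7), rank 72. Libraries 4 and 5 were again lowest, and library 1 was highest.

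**Figure D1:**
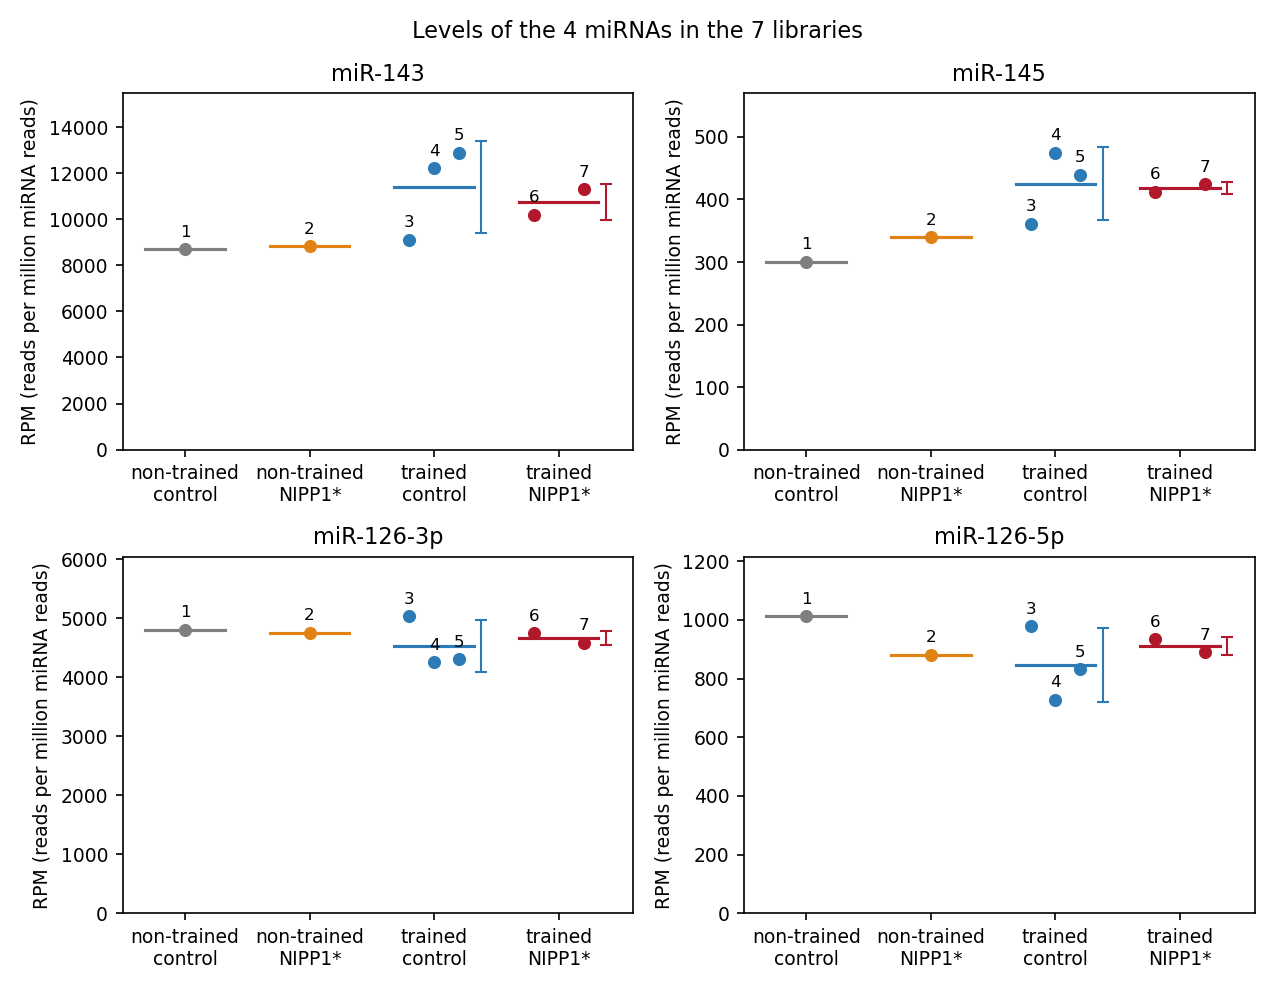
Level of each miRNA in RPM (linear axes from 0) in the 4 groups as labelled, with points for single libraries numbered 1 to 7, lines for group means and bars for 1 SD where a group holds more than 1 library. The trained libraries of miR-143 (9116 to 12880 RPM) and of miR-145 (360.8 to 474.5 RPM) all lie above both non-trained libraries, while those of miR-126-3p and miR-126-5p do not separate.

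The order of the means, miR-143, miR-126-3p, miR-126-5p and miR-145, held within every library, and no ranges of neighbours in this order overlapped. Reads were not calibrated between different miRNAs, so this order is one of reads. Summed, the 4 made up 1.48% to 1.85% of a library's miRNA reads. Across the libraries the log2 level of miR-126-3p was among the steadiest, with an SD of 0.088. Of the 319 miRNAs averaging 100 reads or more, 302 had a larger SD, and the median SD was 0.19. The SD of log2 was 0.23 for miR-143 (108 of 319 larger), 0.23 for miR-145 (107 larger) and 0.16 for miR-126-5p (206 larger).

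The passenger strands of the miR-143 and miR-145 hairpins, the strands mostly discarded during maturation, were scarce. miR-143* lay between 24.52 and 35.04 RPM and miR-145* between 40.24 and 57.43 RPM. Against its passenger strand, miR-143 was 356 times as abundant by the means (297 to 423 over the libraries) and miR-145 8.33 times (7.17 to 10.2). Of the miR-126 strands, both members here, miR-126-3p was 5.19 times as abundant as miR-126-5p (4.75 to 5.84). For both passenger strands, 3 of 5 trained libraries exceeded both non-trained ones, so their groups overlapped.

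The main question of the design, for these miRNAs, was whether their level differed after NOR training. miR-143 averaged 11143 ± 1518 RPM in the trained libraries (SD, n = 5) and 8762 ± 77.8 RPM in the non-trained ones (SD, n = 2). miR-145 averaged 422 ± 41.6 and 320 ± 27.3 RPM. For both, all 5 trained libraries lay above both non-trained libraries, also after TMM scaling and with DESeq2 size factors. Such a separation upwards was found for 16 of 476 miRNAs (3.36%), for 6.72% under TMM scaling and for 6.09% with DESeq2 size factors, and downwards for 39 (8.19%).

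The separation did not amount to a call in the test across all miRNAs. Over both genotypes, trained minus non-trained, the log2 fold change of miR-143 was 0.33 (SE 0.15, 95% interval -0.02 to 0.68, limma adjusted p = 0.873). That of miR-145 was 0.39 (SE 0.14, 95% interval 0.05 to 0.74, limma adjusted p = 0.873). The median of all 476 miRNAs was -0.05, and 39.5% had a value above 0. By log2 fold change, 21 miRNAs stood above miR-143 and 14 above miR-145, and ordered by limma's unadjusted p, miR-145 ranked 8 and miR-143 ranked 24 of 476. Without library 3, the trained control library nearest to the non-trained ones, the values were 0.41 and 0.45. The adjusted p-values in limma were then 0.191 and 0.233. With any other trained library left out instead, the values were smaller, from 0.28 to 0.37 for miR-143 and from 0.35 to 0.41 for miR-145. Where that library was another trained control one, the limma adjusted p of both miRNAs was 0.992 or 0.995.

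miR-126 showed no such separation. miR-126-3p averaged 4582 ± 323 RPM in trained libraries (SD, n = 5) and 4779 ± 35.4 RPM in non-trained ones (SD, n = 2). The trained range, 4252 to 5030 RPM, held the non-trained values within it. Its log2 fold change was -0.06 (SE 0.11, 95% interval -0.31 to 0.19, limma adjusted p = 0.958), and the sign turned with DESeq2 size factors (0.0082). miR-126-5p averaged 872 ± 97.3 against 946 ± 93.1 RPM, a log2 fold change of -0.11 (SE 0.14, 95% interval -0.45 to 0.23, limma adjusted p = 0.922). That value was -0.053 under TMM scaling, -0.042 with DESeq2 size factors, -0.16 without library 3 and -0.058 without library 4, and that of miR-126-3p was -0.098 and -0.037 without these libraries. Whether the difference of miR-143 and miR-145 was unlike that of miR-126 was not tested. In these tissue samples, fewer cells of a type and less of the RNA per cell cannot be told apart.

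Across the 6 comparisons run with limma, 0 of 476 miRNAs passed an adjusted p of 0.05 in any (0.0%), with 6 to 37 miRNAs below an unadjusted p of 0.05 (17 to 113 without library 3). edgeR on recovered reads called 0 as well. DESeq2 called 1 or 2 miRNAs in 5 of the comparisons and 0 in the other, and none was among the 4. They were miR-129-2-3p, miR-344d-3*, miR-146a and miR-136, named here after their values were seen.

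Among controls, trained minus non-trained gave a log2 fold change of 0.37 (SE 0.20) for miR-143 and 0.49 (SE 0.20) for miR-145, both with a limma adjusted p of 0.666. miR-126-3p had a value of -0.09 (SE 0.14) and miR-126-5p of -0.27 (SE 0.19). The median over all miRNAs was -0.09, so miR-126-3p stood at the middle of the distribution. Its sign turned under TMM scaling (0.00090). Without library 3 the values of miR-143 and miR-145 were 0.53 and 0.60, with adjusted p-values in limma of 0.0721 and 0.0735. Those of miR-126-3p and miR-126-5p were then -0.17 and -0.38. Without library 4 the 4 values were 0.32, 0.40, -0.047 and -0.16 in that order, and without library 5 0.28, 0.46, -0.055 and -0.26. The limma adjusted p of both miR-143 and miR-145 was 0.908 without library 4 and 0.8765 without library 5. With libraries 6 and 7 taken as trained control, the values were 0.30 for miR-143, 0.48 for miR-145, -0.043 for miR-126-3p and -0.15 for miR-126-5p. The limma adjusted p of each was then 0.994.

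In NIPP1* mice, trained minus non-trained gave 0.28 (SE 0.22) for miR-143, 0.30 (SE 0.21) for miR-145, -0.03 (SE 0.15) for miR-126-3p and 0.05 (SE 0.21) for miR-126-5p on the log2 scale. None passed the test (limma adjusted p from 0.973 to 0.999). Without libraries 6 and 7 in turn, the values were -0.054 and -0.0021 for miR-126-3p, 0.015 and 0.084 for miR-126-5p and 0.36 and 0.21 for miR-143. Both non-trained groups hold 1 library, so their spread was taken from the trained groups. The difference between the genotypes in this effect, tested as an interaction, was -0.09 (SE 0.30) for miR-143, -0.19 (SE 0.29) for miR-145, 0.06 (SE 0.21) for miR-126-3p and 0.32 (SE 0.28) for miR-126-5p. The adjusted p-values in limma lay between 0.874 and 0.955, and the intervals, such as -0.87 to 0.50 for miR-145, leave room for differences in either direction. With 1 trained library left out, the interaction ranged from -0.24 to 0.0064 for miR-143, from -0.30 to -0.10 for miR-145, from 0.019 to 0.14 for miR-126-3p and from 0.21 to 0.43 for miR-126-5p, with these ends reached without library 3, 4 or 5.

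**Figure D2:**
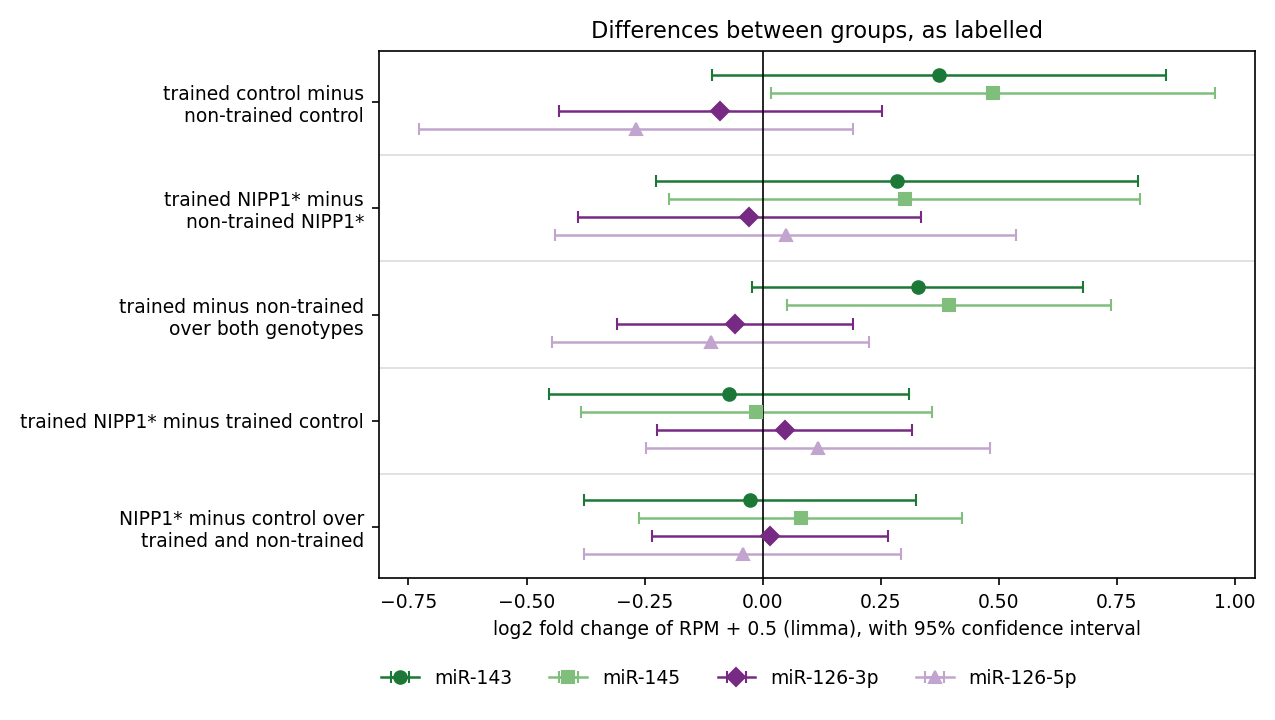
Log2 fold change of RPM + 0.5 for the 4 miRNAs in 5 comparisons of groups as labelled, points with 95% confidence intervals from the limma model of 7 libraries. Values of miR-143 and miR-145 lie between 0.28 and 0.49 in the 3 comparisons of trained with non-trained libraries, and intervals of miR-126-3p and miR-126-5p hold 0 in all 5.

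Inhibition of PP1 was compared first among trained mice. miR-143 averaged 10750 ± 792 RPM in trained NIPP1* (SD, n = 2) and 11405 ± 2010 RPM in trained control libraries (SD, n = 3). miR-145 averaged 418 ± 8.84 and 425 ± 58.2 RPM. The log2 fold changes, trained NIPP1* minus trained control, were -0.07 (95% interval -0.45 to 0.31) for miR-143 and -0.01 (-0.38 to 0.36) for miR-145. For miR-126-3p the value was 0.05 (-0.22 to 0.32) and for miR-126-5p 0.12 (-0.25 to 0.48). Single libraries moved all 4 values. Without library 3 they were -0.22 and -0.13 for miR-143 and miR-145 and 0.12 and 0.23 for miR-126-3p and miR-126-5p. Without library 4 they were -0.013, 0.071, 0.0037 and 0.014 in that order. The trained control range held both trained NIPP1* libraries for all 4 miRNAs, the limma adjusted p-values lay between 0.847 and 0.990, and all 4 signs turn with the grouping of the authors' tables. Over trained and non-trained libraries together, NIPP1* minus control gave values between -0.04 and 0.08, each with a limma adjusted p of 0.997. With the trained groups exchanged as in the tables, that of miR-126-5p went from -0.04 to -0.16 (limma adjusted p = 0.874).

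Between the 2 non-trained libraries there is 1 library a group and no test. miR-143 had a log2 ratio, NIPP1* over control, of 0.018 (95% interval 0.0033 to 0.033 by an exact conditional binomial method) and miR-126-3p one of -0.015 (-0.035 to 0.0048). miR-145 was higher in the NIPP1* library by 0.17 (0.097 to 0.25) and miR-126-5p lower, at -0.20 (-0.25 to -0.16). These intervals cover counting error only. Pairs of libraries of the same trained group differed by 0.043 to 0.40 for miR-145 and by 0.070 to 0.43 for miR-126-5p, so both ratios lay within the differences between libraries of 1 group. Of 322 miRNAs compared, 147 had a ratio larger in size than that of miR-145 and 129 than that of miR-126-5p, and 3 (0.932%) passed a log2 ratio of 1 in size.

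The balance of products from 1 locus does not depend on how a library is scaled. miR-126-5p made up 17.4% of the reads of both arms in library 1 (Wilson 95% interval 17.1 to 17.7) and 15.6% in library 2 (15.3 to 16.0). In libraries 3, 4 and 5 the share was 16.3%, 14.6% and 16.2%, and in libraries 6 and 7 it was 16.4% and 16.3%. The Wilson interval of library 1 lay above, and that of library 4 below, the intervals of all others, which had shares of 15.6% to 16.4%. In exact permutation tests (two-sided), the share differed between trained and non-trained libraries by -0.55 percentage points (p = 0.476), between trained NIPP1* and trained control by 0.64 (p = 0.6), or 0.093 without library 4, and between NIPP1* and control by -0.025 (p = 0.971). The difference between trained and non-trained libraries turned to 0.34 percentage points without library 1 and was -1.44 without library 2. With libraries 3, 4 and 5 taken as trained NIPP1* and 6 and 7 as trained control, NIPP1* minus control was -1.01 percentage points (exact permutation p = 0.143, adjusted p = 0.429). Over the 3 comparisons of labelled groups the adjusted p-values were 0.9 to 0.971. The smallest p these designs allow is 0.0476, 0.1 and 0.0286.

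miR-143 exceeded miR-145 by a ratio between 24.7 (library 6) and 29.3 (library 5). Library 1, at 28.9, stood near the top and library 2, at 25.98, near the middle, so the ratio did not follow training. The log2 ratio differed by -0.06 between trained and non-trained, by -0.06 between trained NIPP1* and trained control and by -0.08 between NIPP1* and control libraries, with adjusted p-values of 0.7 each in exact permutation tests.

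**Figure D3:**
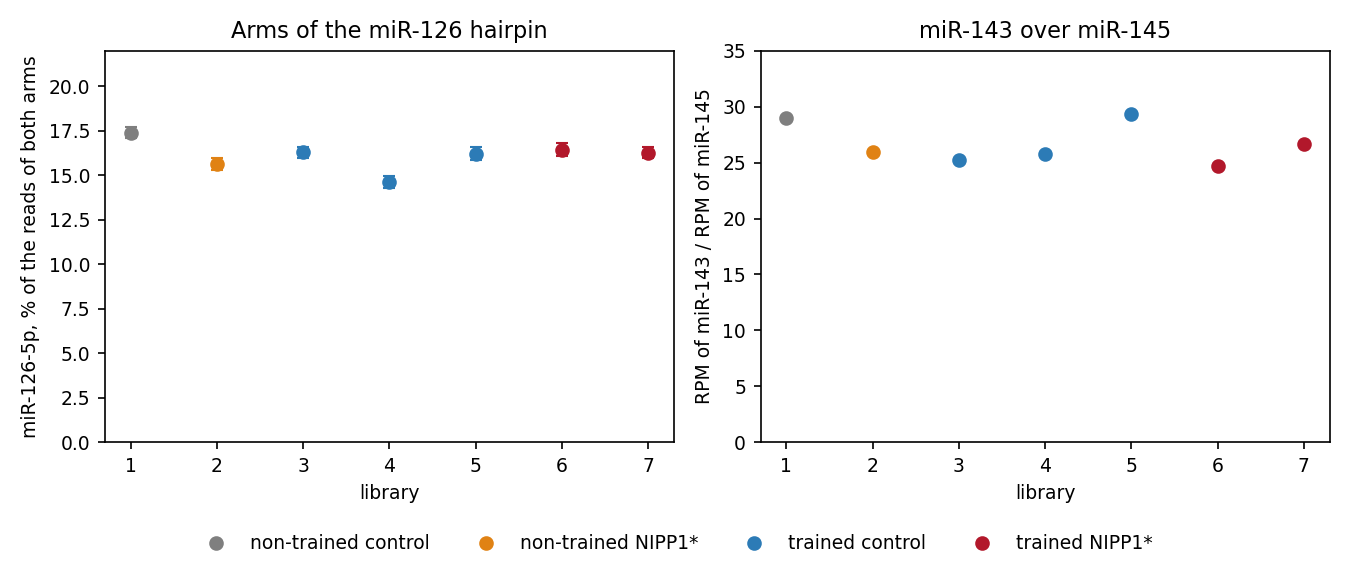
Left, miR-126-5p as a percent of the reads of both miR-126 arms in libraries 1 to 7, with 95% Wilson intervals (counting error only), and right, the RPM of miR-143 over that of miR-145, with colours for the groups as labelled and both axes from 0. The share lies between 14.6% and 17.4% and the ratio between 24.7 and 29.3.

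Products of one locus differed together between libraries. Over the 7 libraries, log2 levels of miR-143 and miR-145 had a Pearson's r of 0.92 (exact permutation p = 0.00556, adjusted p = 0.0151 over 6 pairs) and a Spearman's rho of 0.96 (exact permutation p = 0.00278, adjusted p = 0.0167). Without libraries 4 and 5, the farthest from the median of miR-143, r was 0.91, and under TMM scaling it was 0.94. The call was lost without library 4, 6 or 7, where r was 0.89, 0.94 and 0.91 (adjusted exact permutation p = 0.0542, 0.05 and 0.0583). miR-126-3p and miR-126-5p had an r of 0.88 (exact permutation p = 0.00754, adjusted p = 0.0151) and a rho of 0.86 (exact permutation p = 0.0238, adjusted p = 0.0357). Without libraries 4 and 5 their r was 0.64, and under TMM scaling it was 0.82, with an adjusted exact permutation p of 0.0952. This call too was lost without library 4, 6 or 7 (r of 0.82, 0.88 and 0.88, adjusted exact permutation p = 0.0833, 0.05 and 0.0583).

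Products of the 2 loci differed in opposite directions on the RPM scale. For miR-143 and miR-126-3p, r was -0.90 (exact permutation p = 0.00734, adjusted p = 0.0151) and rho -0.86 (exact permutation p = 0.0238, adjusted p = 0.0357). This rested in part on libraries 4 and 5, without which r was -0.67, and under TMM scaling r was -0.53 (adjusted exact permutation p = 0.263). The call thus depends on the scaling. It was also lost without library 4, 6 or 7 (r of -0.88, -0.90 and -0.91, adjusted exact permutation p = 0.0542, 0.05 and 0.0667). With any 1 library left out, r itself lay between -0.92 and -0.85, in tests that hold only 6 libraries. For miR-143 and miR-126-5p, r was -0.77 (exact permutation p = 0.0387, adjusted p = 0.0464) and rho -0.75 (exact permutation p = 0.0663, adjusted p = 0.0663), with an r of -0.49 without libraries 4 and 5 and of -0.58 under TMM scaling, where the call was lost (adjusted exact permutation p = 0.254). It was lost as well without library 1, 3, 4, 5, 6 or 7.

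For miR-145, the pair with miR-126-3p had an r of -0.76 (exact permutation p = 0.0516, adjusted p = 0.0516) and a rho of -0.89 (exact permutation p = 0.0123, adjusted p = 0.0357). The pair with miR-126-5p had an r of -0.79 (exact permutation p = 0.0312, adjusted p = 0.0464) and a rho of -0.79 (exact permutation p = 0.0480, adjusted p = 0.0576). Without libraries 1 and 2, the farthest from the median of miR-145, these r were -0.95 and -0.92. Under TMM scaling they were -0.45 and -0.64, and neither passed. The call of miR-145 with miR-126-5p was also lost without library 1, 3, 4, 5, 6 or 7. All values are shares of 1 library total, and no group holds the 6 libraries taken here as the minimum for a correlation. Within the 3 trained control libraries, library 3 was lowest for miR-143 and miR-145 and highest for both miR-126 products.

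**Figure D4:**
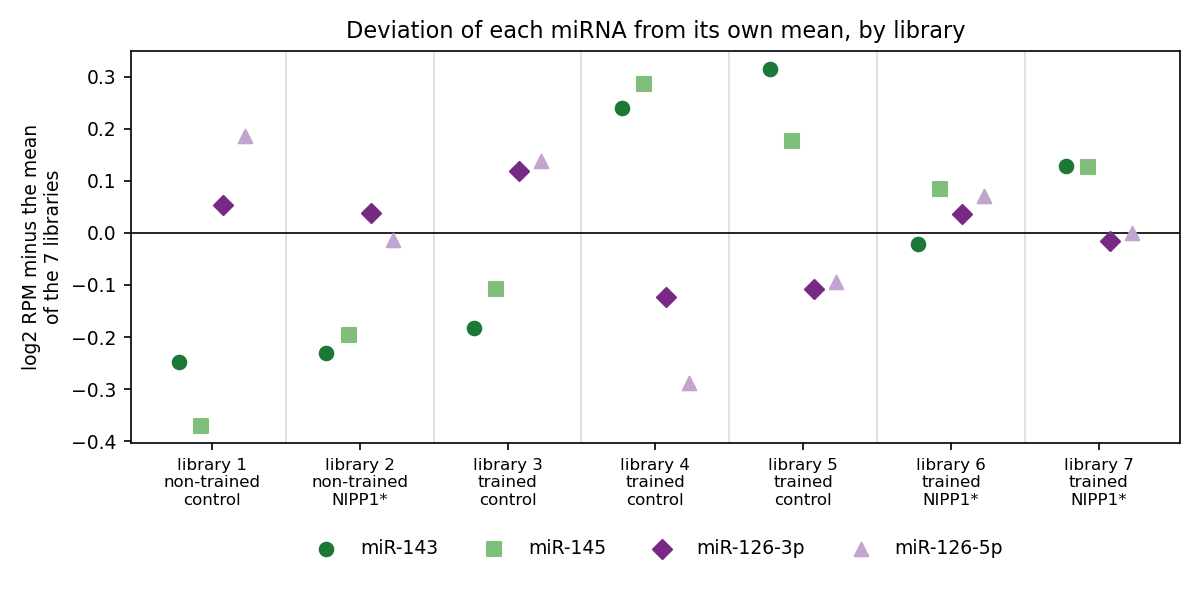
Log2 RPM of each miRNA minus its mean over the 7 libraries, by library, with marker shapes for the 4 miRNAs and the group as labelled under each library. In libraries 4 and 5 miR-143 and miR-145 lie above 0 and both miR-126 products below it, in libraries 1 and 3 the reverse holds.

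The miRNAs most like each of the 4 over the 7 libraries were ranked by Pearson's r among 315 named miRNAs averaging 100 reads or more, as a description with the library total shared by all. miR-143 was followed most closely by miR-128-1* (0.94), miR-744 (0.89) and miR-139-5p (0.86), and miR-145 would rank 2 in that order. miR-145 was followed by miR-139-5p (0.97), miR-191 (0.93, joined to its sequence by reads alone) and miR-129-2-3p (0.86), with miR-143 at rank 3. For miR-126-3p they were miR-34b-5p (0.94), miR-148a (0.92) and miR-344 (0.92), and miR-126-5p ranked 13. For miR-126-5p they were miR-101b (0.93), miR-148a (0.89) and miR-137 (0.88), with miR-126-3p at rank 3.

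The list of other blood vessel miRNAs, of endothelium, smooth muscle, pericytes and fibroblasts, named 7 hairpins. Of 12 products named, 11 were measured and 8 tested, and 0 were called in any of 3 comparisons: trained against non-trained, in controls and over both genotypes, and trained NIPP1* against trained control. The most abundant were miR-322 (mean 147 RPM), a miRNA of the miR-15/16 family, miR-10a (21.8 RPM) and miR-10b (14.6 RPM), miRNAs of the Hox clusters, and miR-322* (8.66 RPM). Over both genotypes the median log2 fold change, trained minus non-trained, was -0.06, against -0.05 for all miRNAs tested. Of the 8 tested members 3 were above 0, against 39.5% of all miRNAs tested. The summed level lay between 176 and 231 RPM in the trained and between 184 and 222 RPM in the non-trained libraries, so the ranges of this sum, most of it miR-322, overlapped. One member, miR-199a-5p, named after its values were seen, had all 5 trained libraries (6.83 to 7.82 RPM) above both non-trained ones (6.75 and 6.19 RPM), as 3.36% of the miRNAs tested did, with a log2 fold change of 0.14 (SE 0.17, limma adjusted p = 0.922). miR-10b* was at 0 in 5 libraries and miR-10a* in 1.

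Lists for other cells that a dissected hippocampus can hold were summed in the same libraries. Choroid plexus miRNAs (5 measured of 5 names, miR-211 at 0 in 1 library) summed to 733 RPM in library 1, 952 in library 2, 1393, 576 and 445 in libraries 3, 4 and 5, and 1044 and 546 in libraries 6 and 7. Most of this sum was miR-204 (mean 684 RPM). The log2 sum had an r of 0.87 with miR-126-3p and of -0.77 with miR-143 over the 7 libraries, as a description. The part of this list in the levels of these miRNAs was not tested. In trained minus non-trained, the median log2 fold change of its 4 tested members was -0.32, with 0 of 4 above 0. For all miRNAs tested the median was -0.05, with 39.5% above 0. Red blood cell miRNAs (4 of 5 names measured, none at 0) summed to between 73.2 and 278 RPM in trained and between 95.1 and 131 RPM in non-trained libraries, with r between -0.26 and 0.56 to the 4 miRNAs. By group, the trained NIPP1* libraries (150 and 278 RPM) lay above all 3 trained control libraries, with a median log2 fold change of 1.26 and 3 of 4 members above 0. In trained minus non-trained the median was 0.34, with 4 of 4 above 0, and in trained minus non-trained control -0.57, with 1 of 4. The part of this list in the levels of the 4 miRNAs was not tested. Leukocyte and microglia miRNAs (9 of 9) summed to 1163 to 1382 RPM in trained and 1302 to 1659 RPM in non-trained libraries, with miR-223* at 0 in 2 libraries and miR-146a* in 1. Oligodendrocyte miRNAs (5 of 5) summed to 3266 to 5062 and 4400 to 5461 RPM, with r of -0.59 to miR-143 and 0.72 to miR-126-5p. Most of this sum was miR-338-3p (mean 3726 RPM). By group, it was 3266 to 3707 RPM in the trained control and 4672 and 5062 RPM in the trained NIPP1* libraries. These groups are exchanged in the grouping of the authors' tables. In trained control minus non-trained control, the median log2 fold change of the 5 members was -0.47, with 0 of 5 above 0. For all miRNAs tested the median was -0.09, with 40.5% above 0. The part of this list in the values of miR-143 and miR-145 was not tested. limma called no member of these lists or of the neuronal list in any of the 6 comparisons. DESeq2 called miR-146a of the leukocyte list in trained NIPP1* minus non-trained NIPP1* (log2 fold change -1.08, adjusted p = 0.0209).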

How the data were processed

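The authors prepared libraries with the TruSeq Small RNA Kit and mapped inserts of 19 to 26 nt to NCBI37/mm9 with Bowtie through ncPRO-seq. The deposited value of a mature locus is a percent, its share of the library's miRNA reads. The submitters' processing notes also name CASAVA 1.7.0 and bedtools. The deposited comparison tables give a signal, the group mean of size-factor-scaled reads as the authors computed it, which served to name sequences and to check the grouping of libraries. Not used were 2 columns of another table whose names give no group, nor the authors' own fold changes, p-values, adjusted p-values and residual variances.

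Percentages were multiplied by 10000 to RPM, and copies of a sequence were averaged. The 806 loci gave 756 sequences, of which 707 were named, 585 by hairpin and reads and 122 by reads alone. Reads were recovered because low values are multiples of 1 read: of values up to 100 reads, at least 99.1% lay within 0.2 reads of a whole number in each library, and 100% of all values in the tables' columns of one non-trained library each lay within 0.1 reads. Amplified reads are not independent molecules, so intervals cover counting error only.

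limma 3.58.1 (lmFit, contrasts.fit, eBayes with trend) was run on log2(RPM + 0.5) of all 476 miRNAs averaging 10 reads or more, in one model of 7 libraries and 4 groups, with Benjamini-Hochberg adjustment and a threshold of 0.05. A fold change on this scale understates changes of low miRNAs. The test was checked on simulated data. Shares, ratios and correlations were tested by exact permutation over libraries, two-sided. Alternatives were pseudocounts of 0.1 and 1, other read minimums, TMM scaling, DESeq2 1.42.0, edgeR 4.0.16, models of only the groups compared, the grouping of the authors' tables and leaving out each library.

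The miRNAs and lists were chosen with earlier results of these data known. Named besides the 4 miRNAs are the other products of their hairpins, the 3 miRNAs most like each by Pearson's r, and the 4 most abundant of the other blood vessel list. Outside this rule, some miRNAs were named after their values were seen. They are those called by DESeq2, list members at 0 in a library and miR-199a-5p. The most abundant members of the neuronal, choroid plexus and oligodendrocyte lists were named in the same way. R 4.3.3, Python 3.11.15, numpy 2.4.6, scipy 1.17.1, pandas 2.3.3 and matplotlib 3.10.9 were used.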

Additional observations from a re-analysis of the deposited data

Results flagged for a closer look

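For miR-126-5p, the trained libraries of the genotypes lay on opposite sides of their own non-trained library, as labelled. Of 476 miRNAs tested, 104 did so (21.8%), 64 of them in this direction (13.4%), so the pattern is not particular to miR-126-5p. All 3 trained control libraries (727.8 to 978.8 RPM) lay below library 1 (1012 RPM), and both trained NIPP1* libraries (889.3 and 933.5 RPM) lay above library 2 (880.4 RPM). The training effects differed by 0.32 on the log2 scale, and the interaction term did not pass the test (SE 0.28, limma adjusted p = 0.874), with 124 miRNAs having a higher value. With libraries 3, 4 and 5 taken as trained NIPP1* and 6 and 7 as trained control, the interaction was 0.084, and libraries 4 and 5 lay below library 2. The share of miR-126-5p among the reads of both arms did the same: it was below that of library 1 (17.4%) in all 3 trained control libraries and above that of library 2 (15.6%) in both trained NIPP1* libraries. The effects differed by 2.41 percentage points, and this difference was not tested. With that other grouping they differed by 1.14 percentage points, and library 4 (14.6%) lay below library 2. Each side rests on 1 non-trained library.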

How the results depend on the processing

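No paired analysis was possible because the titles carry no shared replicate numbers and both non-trained groups hold 1 library. The count of called miRNAs was 0 under each alternative in limma and edgeR. Counts at an unadjusted p under 0.05 in limma rose from 6 to 37 per comparison to between 17 and 113 without library 3, and were 5 to 22 without library 7 and 1 to 21 without library 6. The DESeq2 Wald test called 1 in trained control minus non-trained control, in trained NIPP1* minus trained control and in trained minus non-trained, and 2 in trained NIPP1* minus non-trained NIPP1* and in the interaction. No fold change of the 4 miRNAs passed the test under any alternative, and miR-143 and miR-145 stayed higher in trained libraries in each. Signs of values near 0 turned. For miR-126-3p, trained control minus non-trained control was 0.00090 under TMM scaling, 0.0044 with DESeq2 size factors, 0.0045 in edgeR and 0.0078 in the DESeq2 Wald test. Its trained NIPP1* minus trained control was -0.028, -0.0058, -0.031 and -0.0089 in the same order, and NIPP1* minus control was -0.025, -0.0095, -0.026 and -0.011. With DESeq2 size factors and the Wald test, its trained NIPP1* minus non-trained NIPP1* was 0.012 and 0.012, and its trained minus non-trained 0.0082 and 0.010. Its interaction was -0.0065 under TMM scaling and -0.0098 in edgeR. Grouping the trained libraries as the tables do exchanges the trained groups, so trained NIPP1* minus trained control became 0.071 for miR-143, 0.013 for miR-145, -0.047 for miR-126-3p, -0.12 for miR-126-5p, -0.64 percentage points for the miR-126-5p share and 0.058 for the log2 ratio of miR-143 to miR-145. NIPP1* minus control became 0.045 for miR-143, -0.031 for miR-126-3p, -0.16 for miR-126-5p, -1.01 percentage points for the share and -0.0099 for the log2 ratio, the interaction 0.053, -0.032 and, for miR-126-5p, 0.084, and trained NIPP1* minus non-trained NIPP1* of miR-126-5p -0.068. TMM scaling moved trained minus non-trained of miR-126-5p to -0.053 and, in controls, to -0.18, and trained NIPP1* minus trained control to -0.15 for miR-143, -0.088 for miR-145 and 0.042 for miR-126-5p. Under it, r fell short of the threshold for miR-143 with miR-126-3p (-0.53) and miR-126-5p (-0.58), for miR-145 with miR-126-5p (-0.64) and between the miR-126 arms (0.82); the cause was not tested. With each library left out in turn, trained NIPP1* minus trained control ranged from -0.22 to 0.025 for miR-143 (above 0 without library 5 or 6) and from -0.13 to 0.071 for miR-145 (library 4, 5 or 6). NIPP1* minus control ranged from -0.10 to 0.021 for miR-143 (library 4, 5 or 6), from -0.0057 to 0.055 for miR-126-3p (below 0 without library 4 or 5) and from -0.094 to 0.013 for miR-126-5p (above 0 without library 3), and the interaction of miR-143 from -0.24 to 0.0064 (library 5). Without libraries 3 and 4 in turn, the interaction was -0.30 and -0.10 for miR-145 and 0.14 and 0.019 for miR-126-3p, trained control minus non-trained control -0.17 and -0.047 for miR-126-3p and -0.38 and -0.16 for miR-126-5p, and NIPP1* minus control 0.024 and 0.12 for miR-145. Trained NIPP1* minus non-trained NIPP1* ranged from -0.054 to -0.0021 for miR-126-3p and from 0.015 to 0.084 for miR-126-5p (without library 6 or 7). Trained NIPP1* minus trained control ranged from 0.0037 to 0.12 for miR-126-3p, from 0.014 to 0.23 for miR-126-5p and from 0.093 to 0.93 percentage points for the miR-126-5p share, lowest without library 4 and highest without library 3. The share of miR-126-5p ranged from -1.44 to 0.34 percentage points for trained minus non-trained (above 0 without library 1) and from -0.53 to 0.40 for NIPP1* minus control (library 1, 2, 3 or 5). The log2 ratio of miR-143 to miR-145 ranged from -0.11 to 0.0088 for trained NIPP1* minus trained control (above 0 without library 5) and from -0.14 to 0.017 for trained minus non-trained (library 1). Over 6 libraries, r ranged from 0.89 to 0.95 for miR-143 and miR-145, -0.92 to -0.85 for miR-143 and miR-126-3p, -0.87 to -0.69 for miR-143 and miR-126-5p, -0.87 to -0.70 for miR-145 and miR-126-5p and 0.82 to 0.91 for the miR-126 arms, and the adjusted exact permutation p then rose to at most 0.058, 0.067, 0.127, 0.155 and 0.0833. Without library 1 or 2, comparisons that need it have no value, and models of only the groups compared exist for comparisons of 1 pair of groups.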
